A study of Mus musculus with 13 samples.

Results

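Malat1 and 5 further noncoding RNAs, Neat1, Zfas1, Rian, Rn7sk and Rpph1, were followed across S1 proximal tubule segments of endotoxin-treated and saline-treated mice. They were taken as the probe sets whose only annotated gene symbol was one of these 6 names, which gave 9 probe sets of 6 genes, out of 23521 probe sets and 22180 genes with 1 symbol each and 41345 probe sets in the whole table. Malat1, Zfas1 and Rn7sk had 2 probe sets each, and every one is shown. A further 2 probe sets name Rian or Zfas1 together with another symbol and were left out. The genes were picked because of how they behaved on these same arrays, so their levels and differences stand as a description, with no test.

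The proximal tubule opens with the S1 segment, which reclaims glucose, amino acids, phosphate and protein from the filtrate. Its RNA from male mice of the C57BL/6J strain was hybridised to 13 Affymetrix whole-transcript arrays, 1 per sample. The LPS/LPS group (5 arrays) received 0.25 mg/kg of lipopolysaccharide (LPS), the endotoxin of Gram-negative bacteria, and 5 mg/kg after a further 24 h. The LPS group (4 arrays) received the 5 mg/kg dose alone, by the intraperitoneal route, and the control group (4 arrays) an equal volume of saline. The labels also give the doses as 5 and 100 ug, and place both endotoxin groups 24 h after the large dose. Comparing LPS/LPS with LPS asks how a small earlier dose alters the response to the large one. The sources used here give neither the age of the mice nor the way the segments were isolated. Nothing in the labels ties each array to its own animal, so any p reflects the scatter of these samples alone, which may be partly technical.

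Most long noncoding RNAs of this kind stay in the nucleus. Malat1 is made by RNA polymerase II, is held in nuclear speckles, the bodies that store splicing factors, and has its downstream end cut by RNase P, which releases the small mascRNA. Neat1, encoded next to Malat1, is the scaffold on which paraspeckles are built. Rn7sk, made by RNA polymerase III, is the core of a particle that keeps the elongation factor P-TEFb inactive. Rpph1, also made by RNA polymerase III, is the catalytic RNA of RNase P, which trims transfer RNA precursors. Zfas1 lies antisense to Znfx1 and carries small nucleolar RNAs in its introns. Rian is a maternally expressed transcript of the imprinted Dlk1-Dio3 domain and likewise carries small nucleolar RNAs. RefSeq places Malat1 and Neat1 on chromosome 19, Zfas1 on chromosome 2, Rian on chromosome 12, Rn7sk on chromosome 9 and Rpph1 on chromosome 14. It classes Malat1, Neat1, Zfas1 and Rian as long noncoding RNAs, Rn7sk as a small nuclear RNA and Rpph1 as RNase P RNA.

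The promoter windows of 2 of the long noncoding RNAs are shown because their levels were ordered differently over the groups, as described below. Each holds 250 bases before and 50 bases after the start site, read 5′ to 3′ along the gene from RefSeq (GRCm38.p6), which covered 3 of the 6 genes. The Malat1 window is chr19:5802623-5802922 on the minus strand and the Zfas1 window is chr2:167062684-167062983 on the plus strand. Capitals mark matches to TGACGT, the core of the cAMP response element, on either strand.
Malat1 promoter: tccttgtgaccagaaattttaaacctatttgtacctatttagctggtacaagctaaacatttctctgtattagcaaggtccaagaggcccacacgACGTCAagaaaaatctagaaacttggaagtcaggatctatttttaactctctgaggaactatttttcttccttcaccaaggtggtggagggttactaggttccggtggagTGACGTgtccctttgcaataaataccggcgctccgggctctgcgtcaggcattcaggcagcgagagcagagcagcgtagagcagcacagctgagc
Zfas1 promoter: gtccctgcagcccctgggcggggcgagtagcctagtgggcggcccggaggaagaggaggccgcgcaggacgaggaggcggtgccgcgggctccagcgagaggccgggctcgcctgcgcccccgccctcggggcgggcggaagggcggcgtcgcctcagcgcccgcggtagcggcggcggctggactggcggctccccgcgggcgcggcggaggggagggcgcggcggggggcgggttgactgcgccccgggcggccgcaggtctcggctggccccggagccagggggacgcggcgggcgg

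The Malat1 window was 47.0% G and C and the Zfas1 window 83.0%, where the median of all 32851 promoter windows in the table was 52.7%. TGACGT was found in the Malat1 window from base -155 to -150, as its reverse complement, and from base -45 to -40, and 7.51% of all windows held it. Altogether 8 motifs were searched on both strands. The others were TATAAA (the TATA box, in 13.6% of all windows), CCAAT (37.4%), TGANTCA (AP-1, 7.81%), TTCNNNGAA (STAT, 8.3%), an NF-kB motif (1.63%), an interferon response element (3.44%) and CACGTG (an E-box, 7.15%). The Malat1 window matched none of those 7 and the Zfas1 window none of the 8. In the Rian window, which was 49.3% G and C, TTCNNNGAA lay from base -46 to -38. No matches overlapped each other, and a match is a string of letters only.

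Levels are log2 values, so a difference of 1 is a doubling. Olfactory receptor genes, assumed to be largely silent in kidney, gave a background reference: 95% of their 1108 probe sets had a mean level below 4.77. Among all probe sets with 1 symbol, 2304 exceeded it on average. Of the 9 probe sets described here, 5 did: the brighter of Malat1, that of Neat1, both of Rn7sk and that of Rpph1. The remaining 4, both of Zfas1, that of Rian and the dimmer one of Malat1, lay below it, so neither Zfas1 nor Rian was abundant by this measure. Levels of different probe sets are not on 1 scale and are not ranked against each other. Array medians lay between 3.555 and 3.684, and of 22 measured S1 and S2 proximal tubule markers 14 lay above the background reference, among them Slc34a1, which encodes a phosphate carrier of the apical membrane.

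Malat1 showed the widest difference of the 9 probe sets between LPS/LPS and LPS. Its brighter probe set (17361798) read 8.17, 7.08, 7.20, 6.62 and 7.66 on LPS/LPS replicates 1 to 5. On LPS replicates 1 to 4 it read 8.97, 9.62, 9.71 and 10.12, and on control replicates 1 to 4 it read 9.22, 8.86, 8.43 and 8.85. Every LPS/LPS array was thus below every LPS array and every control array, while the LPS and control arrays overlapped through LPS replicate 1. The means were 7.34 ± 0.59 (SD, n = 5) in LPS/LPS, 9.61 ± 0.48 (SD, n = 4) in LPS and 8.84 ± 0.32 (SD, n = 4) in control. LPS/LPS was lower than LPS by a log2 difference of -2.26 (SE 0.29), or 4.80-fold lower, with a 95% interval from -2.89 to -1.63. Against control, LPS/LPS differed by -1.50 (SE 0.29, 95% interval -2.13 to -0.87), or 2.82-fold lower. LPS against control differed by 0.77 (SE 0.31, 95% interval 0.10 to 1.43), in the other direction and smaller, and by 0.40 with the spread of each array, described below, as a covariate. The 3 comparisons share their arrays in pairs, so they are not independent of each other. The intervals make no allowance for the choice of Malat1 on these same arrays.

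The dimmer Malat1 probe set (17356556) did not repeat this order. It read 1.83, 2.44, 2.45, 2.31 and 1.86 on the LPS/LPS arrays, 2.52, 2.92, 2.31 and 1.92 on the LPS arrays, and 1.76, 4.03, 2.93 and 3.15 on the control arrays, by replicate. All 13 values lay below the background reference, and control replicates 1 and 2 held the lowest and the highest of them. Its differences were -0.24 (SE 0.35) for LPS/LPS minus LPS, -0.79 (SE 0.35) for LPS/LPS minus control and -0.55 (SE 0.37) for LPS minus control. The probe sets of Malat1 therefore disagree in sign on LPS against control, with the dim one under the level at which sizes can be read. The sources used here give no probe positions or strands, so what the dim one measures cannot be said.

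Neat1 (17361805), the neighbour of Malat1, had the same order of means. It read 6.57, 6.13, 6.41, 6.13 and 6.21 on the LPS/LPS arrays, 6.67, 7.41, 7.04 and 8.77 on the LPS arrays, and 7.39, 6.46, 6.18 and 6.80 on the control arrays. All LPS/LPS arrays were below all LPS arrays, by a margin between LPS/LPS replicate 1 and LPS replicate 1 that was small beside the spread of the LPS group, and LPS replicate 4 stood highest. The means were 6.29 ± 0.19 (SD, n = 5) in LPS/LPS, 7.47 ± 0.92 (SD, n = 4) in LPS and 6.71 ± 0.52 (SD, n = 4) in control. The difference was -1.19 (SE 0.35) for LPS/LPS minus LPS, and -0.75 without LPS replicate 4. LPS/LPS minus control was -0.42 (SE 0.35) and LPS minus control 0.77 (SE 0.37), and in both of these the arrays overlapped. Without LPS replicate 4, LPS minus control was 0.33, and without control replicate 1, LPS/LPS minus control was -0.19.

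**Figure D1:**
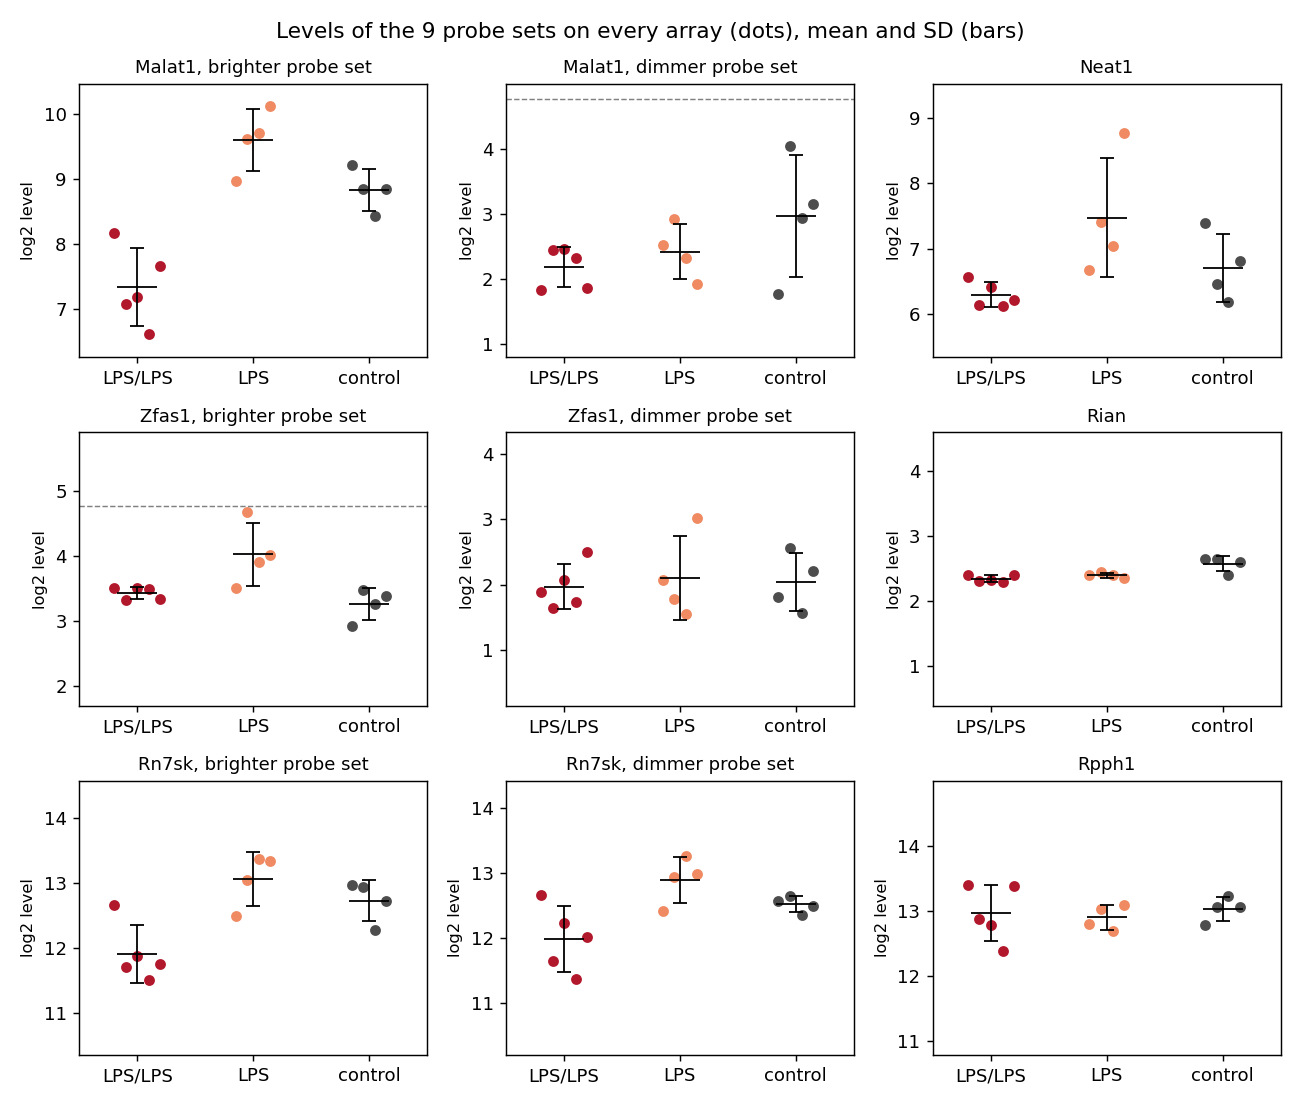
Log2 level of each of the 9 probe sets on every array, in LPS/LPS, LPS and control samples from left to right; dots are arrays, long bars group means and short bars 1 SD, and the dashed line, where it falls in a panel, is the background reference at 4.77. The 5 LPS/LPS arrays of the brighter Malat1 probe set lie between 6.62 and 8.17, below all LPS and control arrays, while Rpph1 lies between 12.39 and 13.40 with the groups mixed.

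Among the RNA polymerase III transcripts, Rn7sk followed the order of Malat1 with smaller differences. Its brighter probe set (17314435) read 12.67, 11.71, 11.87, 11.51 and 11.76 on the LPS/LPS arrays, 12.49, 13.04, 13.37 and 13.34 on the LPS arrays, and 12.97, 12.94, 12.28 and 12.72 on the control arrays. LPS/LPS overlapped the other groups through its replicate 1, which was above LPS replicate 1 and control replicate 3, the lowest arrays of their groups, and the LPS and control arrays overlapped as well. The means were 11.90 ± 0.45 (SD, n = 5) in LPS/LPS, 13.06 ± 0.41 (SD, n = 4) in LPS and 12.73 ± 0.32 (SD, n = 4) in control. The differences were -1.16 (SE 0.25) for LPS/LPS minus LPS, -0.82 (SE 0.25) for LPS/LPS minus control and 0.33 (SE 0.26) for LPS minus control. The last was 0.18 without control replicate 3, 0.52 without LPS replicate 1 and 0.07 with the array spread as a covariate. The second Rn7sk probe set (17529001) read 12.67, 11.64, 12.23, 11.37 and 12.02 on the LPS/LPS arrays, 12.41, 12.94, 13.26 and 12.99 on the LPS arrays, and 12.58, 12.65, 12.36 and 12.50 on the control arrays. It gave -0.91 (SE 0.24), -0.54 (SE 0.24) and 0.38 (SE 0.25) for the same comparisons, so both probe sets had the same signs, again with overlapping arrays. The mouse genome holds many copies related to 7SK RNA, so signal in either probe set is uncertain as to its copy.

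Rpph1 (17305986) did not separate the groups. It read 13.40, 12.89, 12.79, 12.39 and 13.38 on the LPS/LPS arrays, 12.80, 13.04, 12.69 and 13.09 on the LPS arrays, and 12.79, 13.07, 13.23 and 13.07 on the control arrays. The LPS/LPS arrays spanned all the others, with both the highest and the lowest values. The means were 12.97 ± 0.43 (SD, n = 5) in LPS/LPS, 12.91 ± 0.19 (SD, n = 4) in LPS and 13.04 ± 0.18 (SD, n = 4) in control. LPS/LPS minus LPS was 0.06 (SE 0.20), with a 95% interval from -0.36 to 0.49. LPS/LPS minus control was -0.07 (SE 0.20, 95% interval -0.49 to 0.36) and LPS minus control was -0.13 (SE 0.21, 95% interval -0.58 to 0.32). These intervals leave room for true differences in either direction, up to their bounds. Rpph1 and Rn7sk both read toward the top of the deposited values, which ended at 13.8. Whether that limited the size of their differences was not tested.

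Zfas1 and Rian, the small nucleolar RNA hosts, were dim. The brighter Zfas1 probe set (17379864) read 3.51, 3.32, 3.51, 3.49 and 3.34 on the LPS/LPS arrays, 3.51, 4.67, 3.91 and 4.02 on the LPS arrays, and 2.93, 3.48, 3.26 and 3.39 on the control arrays. Every LPS array was above every control array, LPS replicate 1 by the smallest margin, and LPS replicate 2 stood highest. The means were 3.44 ± 0.09 (SD, n = 5) in LPS/LPS, 4.03 ± 0.48 (SD, n = 4) in LPS and 3.26 ± 0.24 (SD, n = 4) in control, an order with control lowest that no other of the 9 probe sets had. LPS/LPS minus LPS was -0.59 (SE 0.20), LPS/LPS minus control 0.17 (SE 0.20) and LPS minus control 0.76 (SE 0.21). Without LPS replicate 2, LPS/LPS minus LPS was -0.375, and without control replicate 1, LPS/LPS minus control was 0.06. The dimmer Zfas1 probe set (17379871) had means of 1.97 ± 0.34 (SD, n = 5) in LPS/LPS, 2.10 ± 0.65 (SD, n = 4) in LPS and 2.04 ± 0.44 (SD, n = 4) in control, with overlap in every comparison.

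Rian (17278715) read 2.41, 2.31, 2.33, 2.30 and 2.41 on the LPS/LPS arrays, 2.41, 2.45, 2.41 and 2.35 on the LPS arrays, and 2.66, 2.65, 2.41 and 2.60 on the control arrays. Its 5 values of 2.41 were the same deposited value to every decimal, on arrays of all 3 groups. Such ties were common in the table, where 28.8% of probe sets with 1 symbol had a value shared by at least 3 arrays. The means were 2.35 ± 0.05 (SD, n = 5) in LPS/LPS, 2.40 ± 0.04 (SD, n = 4) in LPS and 2.58 ± 0.12 (SD, n = 4) in control. Differences of -0.05 for LPS/LPS minus LPS, -0.23 for LPS/LPS minus control and -0.17 for LPS minus control came from a probe set this far under the background reference, so they say little about Rian itself.

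**Figure D2:**
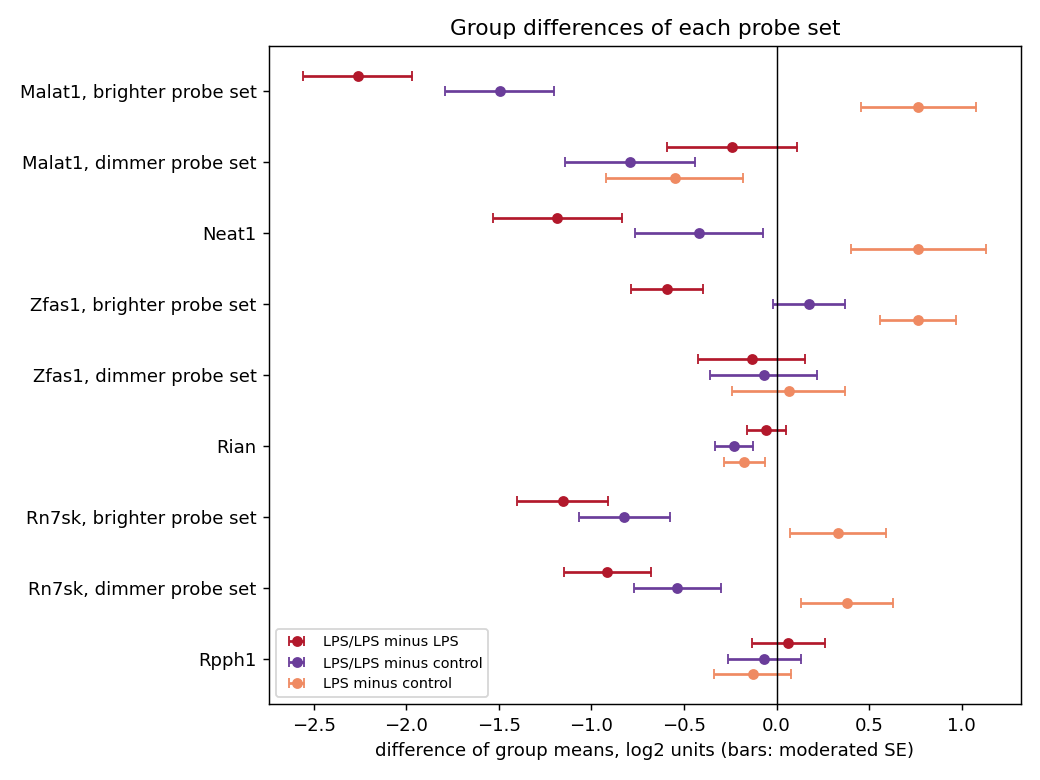
Differences of group means in log2 units for each of the 9 probe sets, as LPS/LPS minus LPS, LPS/LPS minus control and LPS minus control from top to bottom within each row; dots are differences, bars 1 moderated SE, and the vertical line marks 0. The brighter Malat1 probe set lies farthest from 0, at -2.26 for LPS/LPS minus LPS, and Rpph1 stays within 0.13 of 0.

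Counted over the table, in LPS/LPS vs LPS limma called 1 of the 9 probe sets at an adjusted p under 0.05, the brighter one of Malat1, and 0.0893% of all 23521 tested (21 probe sets, of which 20, or 0.0850% of all, were lower). In the same comparison 2 of the 9 were lower without overlap of the arrays, those of Malat1 and Neat1, as were 1.28% of all tested. The Malat1 call was lost, with the same sign, without moderation, with a trend and robust prior, in a fit of only those groups and with replicate numbers as a block. In LPS/LPS vs control 0 of the 9 were called, as was 0.00425% of all tested (1 probe set), and 1 of the 9, Malat1, was lower without overlap, as were 0.706% of all. In LPS vs control 0 of the 9 and 0 of all tested were called, with 1513 of all (6.43%) at an unadjusted p under 0.05. Limma without moderation called 0 in all 3 comparisons, and in LPS vs control limma called 26 with array weights, 7 after quantile normalization and 24 without LPS replicate 1. There 1 of the 9, the brighter one of Zfas1, was higher without overlap, as were 1.52% of all. The median difference over the 9 was -0.59 in LPS/LPS vs LPS, -0.42 in LPS/LPS vs control and 0.33 in LPS vs control, beside medians of 0.05, 0.03 and -0.02 over all tested. Since the genes were chosen on these contrasts, the counts describe the choice.

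The deposited values differed in how widely they spread on an array, and Malat1 moved with that spread. The standard deviation of an array's log2 values ran from 1.28 to 1.42, with its largest gap at 1.328. Above the gap, the 7 wide arrays were LPS/LPS replicates 1 and 5, LPS replicates 2, 3 and 4, and control replicates 1 and 4. After subtraction of group means, Malat1 correlated with the array spread at r = 0.939 over 13 arrays, and 0 of the 2304 probe sets above background had a higher value (their median was -0.05). For Rn7sk r was 0.817, for Neat1 0.66 and for Rpph1 0.535. These r values are descriptive, since each point is an array that also enters its own spread.

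Within the wide arrays Malat1 averaged 7.92 in LPS/LPS (2 arrays), 9.82 in LPS (3 arrays) and 9.04 in control (2 arrays). LPS/LPS minus LPS was -1.90 there, and LPS/LPS minus control was -1.12. Within the narrow arrays Malat1 averaged 6.96 in LPS/LPS (3 arrays), read 8.97 on the only LPS array and averaged 8.65 in control (2 arrays). The differences were -2.01 for LPS/LPS minus LPS and -1.68 for LPS/LPS minus control. With the spread as a covariate LPS/LPS minus LPS was -1.91, and after quantile normalization, which gives all arrays 1 distribution, it was -2.06. With the covariate LPS minus control moved most, to 0.40 from 0.77. By class, LPS minus control was 0.78 for wide arrays, so it hardly moved there. For narrow arrays it was 0.32, a value that rests on 1 LPS array. The gap between LPS/LPS and LPS was somewhat smaller than -2.26 in each class, and in the narrow class it rests on 1 LPS array. The classes were unevenly spread over the groups, and the part of the array spread in the gap was not tested. For Neat1 LPS/LPS minus LPS was -1.35 in the wide class and -0.45 in the narrow class.

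**Figure D3:**
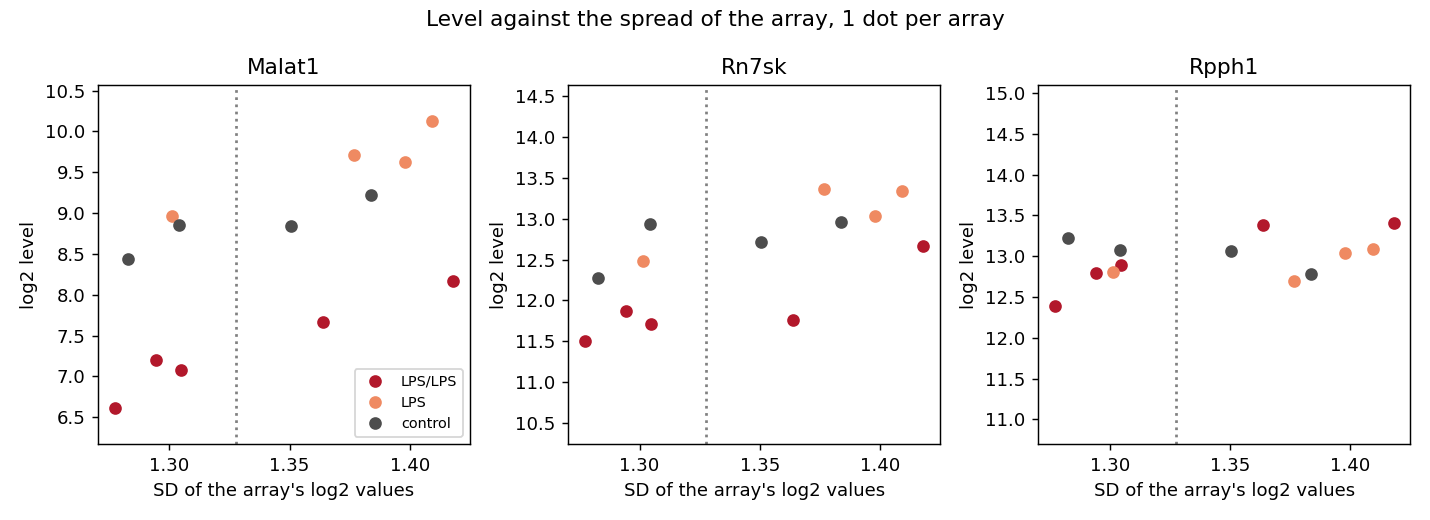
Log2 level of the brightest probe set of Malat1, Rn7sk and Rpph1 (vertical axes) against the standard deviation of all log2 values of the same array (horizontal axes), 1 dot per array and the dotted line at the split of 1.328 between narrow and wide arrays. LPS/LPS arrays lie below the other groups for Malat1 on both sides of the line, and for Rpph1 the groups mix.

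Taking the RNAs against each other within an array removes whatever scales an array as a whole by a constant. It need not remove an effect of the array spread. After subtraction of group means, Malat1 ran with that spread at r = 0.939 and Rpph1 at r = 0.535. Only shifts of such a difference between groups can be read, since its size depends on the probes. Rpph1 and Rn7sk read toward the top of the deposited values, as given above, which may limit how far they could shift. Malat1 minus Rpph1 was -5.23, -5.81, -5.60, -5.78 and -5.72 on the LPS/LPS arrays, -3.83, -3.42, -2.98 and -2.97 on the LPS arrays, and -3.56, -4.21, -4.79 and -4.22 on the control arrays. No LPS/LPS array reached any other array. The genes were picked on these same arrays, and how many other probe set pairs separate so was not counted. This separation and those of the pairs below therefore describe the choice. The means were -5.63 ± 0.24 (SD, n = 5) in LPS/LPS, -3.30 ± 0.41 (SD, n = 4) in LPS and -4.20 ± 0.50 (SD, n = 4) in control. Beside the SDs of Malat1 itself, that of LPS/LPS was smaller (0.24 against 0.59) and that of control larger (0.50 against 0.32).

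Malat1 was also lower relative to Rn7sk. That difference was -4.56 ± 0.29 (SD, n = 5) in LPS/LPS, -3.45 ± 0.19 (SD, n = 4) in LPS and -3.89 ± 0.14 (SD, n = 4) in control, and the 3 ranges did not overlap, the nearest LPS/LPS array being at -4.098 and the lowest control array at -4.08. Malat1 minus Neat1 was 1.055 ± 0.46 (SD, n = 5) in LPS/LPS and 2.13 in both LPS (SD 0.56, n = 4) and control (SD 0.25, n = 4). It overlapped between LPS/LPS and LPS through LPS replicate 4, and did not between LPS/LPS and control. Rn7sk minus Rpph1 was -1.07 ± 0.35 (SD, n = 5) in LPS/LPS, 0.15 ± 0.42 (SD, n = 4) in LPS and -0.31 ± 0.48 (SD, n = 4) in control. Here LPS/LPS lay below every LPS array, and control replicate 3, at -0.95, fell inside the LPS/LPS range.

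**Figure D4:**
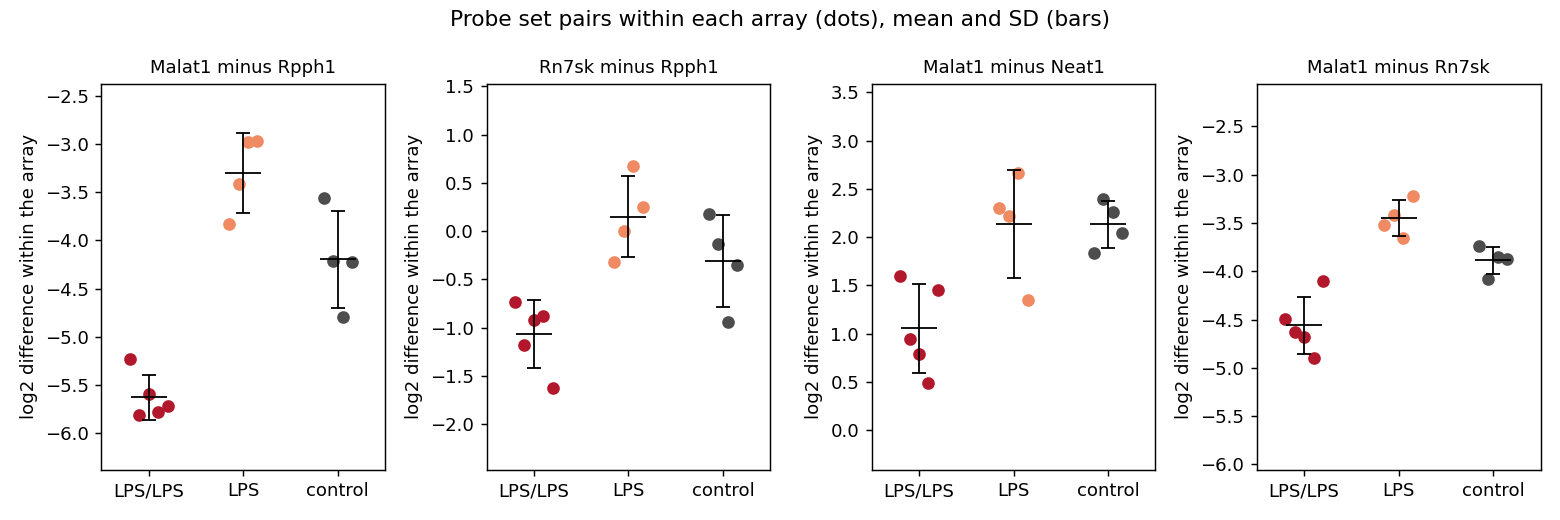
Difference in log2 level between pairs of probe sets on the same array, in LPS/LPS, LPS and control samples from left to right; dots are arrays, long bars group means and short bars 1 SD. Malat1 minus Rpph1 lies between -5.81 and -5.23 on the LPS/LPS arrays and at -4.79 or higher on all LPS and control arrays.

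Across the 13 arrays the levels of Malat1 and Rn7sk ran closely together (Pearson r = 0.955, Spearman rho = 0.945), and with group means subtracted r was 0.891. Malat1 and Neat1 had r = 0.794, or 0.677 with group means subtracted, and Malat1 and Rpph1 had r = 0.196, or 0.616. These are descriptions over arrays that share their spread and RNA input. Of 1951 genes above background, predicted genes left out, those most like Malat1 over the 13 arrays were Atp11a, a phospholipid flippase gene (r = 0.942), Cltrn, which encodes the amino acid transporter partner collectrin (0.924), Ndrg1 (0.921), App, the amyloid precursor gene (0.914), and Gpx3, the secreted glutathione peroxidase (0.909). Cltrn, Ndrg1 and Gpx3 were also among the 5 most like Rn7sk, with the elongation factor gene Eef2 (0.95) and the ferritin heavy chain gene Fth1 (0.945). Most like Neat1 were the autophagy receptor gene Sqstm1 (0.905), the speckle scaffold gene Srrm2 (0.885), Chd4 (0.877), Chmp2a (0.869) and the splicing factor gene Srsf5 (0.866).

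Rpph1 ran with another set: Snord17, a small nucleolar RNA (0.884), the vomeronasal receptor genes Vmn1r160 (0.862) and Vmn1r149 (0.856), the elongation factor gene Ell2 (0.824) and Tmc4 (0.808). Whether the signal of the vomeronasal receptor probe sets comes from those genes was not tested. Most like the brighter Zfas1 probe set were Nrxn2 (0.964), Sik1 (0.856), Jund (0.843), Acot12 (0.842) and the MHC class II gene H2-Ab1 (0.837). Most like Rian were Slc34a1 (0.839), Tle5 (0.827), the inositol oxygenase gene Miox (0.817), Pgap6 (0.793) and the dipeptidase gene Cndp2 (0.749).

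Genes that work with these RNAs were read from lists chosen with earlier results in view. In no list and no comparison did limma call a gene, so the counts at a p that follow use an unadjusted p under 0.05. Counts of signs have no share over all probe sets beside them. Both kinds of count describe direction only. Of 27 measured nuclear speckle proteins, 25 had negative differences in LPS/LPS vs LPS with a median of -0.42, and 12 were lower at that p, as were 4.47% of all probe sets tested. Luc7l3, a splicing factor gene, had the lowest p (difference -0.49, SE 0.14, limma adjusted p = 0.339), and Srrm2, the brightest of the list, differed by -1.02 (SE 0.44, adjusted p = 0.539). In LPS vs control 23 of the 27 were positive with a median of 0.27, and 7 were higher at that p, as were 3.48% of all, led by the splicing kinase gene Clk1 (0.59, SE 0.18, adjusted p = 0.567). Both comparisons use the LPS arrays. In LPS/LPS vs control the median was -0.02, and U2af2, which encodes a subunit of the splicing factor U2AF, had the lowest p (-0.81, SE 0.23, adjusted p = 0.89). Of the 27, 8 exceeded the background reference on average.

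Partners of Rn7sk form the next list. Of 16 measured genes of the 7SK particle and P-TEFb, 14 were negative in LPS/LPS vs LPS with a median of -0.23. At an unadjusted limma p under 0.05, 3 of the 16 were lower, as were 4.47% of all probe sets tested. The RNA helicase gene Dhx9 had the lowest p (-1.01, SE 0.20, limma adjusted p = 0.0843). Dhx9 differed by 0.95 in LPS vs control (SE 0.21, adjusted p = 0.229), where 13 of the 16 were positive with a median of 0.185. In LPS/LPS vs control the median was -0.05, and the elongation factor gene Ell led (0.46, adjusted p = 0.987). A single gene of this list, Ell2, exceeded the background reference on average.

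Paraspeckle proteins, the partners of Neat1, had a median of -0.09 over 23 genes in LPS/LPS vs LPS, -0.0034 in LPS/LPS vs control and 0.11 in LPS vs control. Hnrnpul1 led the first 2 of these (-0.72, SE 0.18, limma adjusted p = 0.235 against LPS, and -0.28, adjusted p = 0.987 against control), and Rbm7 led the last (0.38, adjusted p = 0.646). In LPS/LPS vs LPS 5 of the 23 were lower at an unadjusted limma p under 0.05, as were 4.47% of all probe sets tested. The subunits of RNase P and its relative RNase MRP, partners of Rpph1, had medians of -0.03, 0.01 and 0.04 over 11 genes in LPS/LPS vs LPS, LPS/LPS vs control and LPS vs control, with 0 of the 11 above background. Rpp21 led the first (0.40, adjusted p = 0.448) and the last (-0.47, adjusted p = 0.567), and Rpp30 led LPS/LPS vs control (-0.31, adjusted p = 0.987). Of 3 measured genes that process the downstream end of Malat1, the median was 0.04 in LPS/LPS vs LPS, where Rpp30 led (-0.35, adjusted p = 0.487). The median was 0.155 in LPS/LPS vs control and 0.05 in LPS vs control, led by Rpp30 again and by the nuclease gene Elac2 (0.14, adjusted p = 0.923).

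The machinery of RNA polymerase III, which makes Rn7sk and Rpph1, had medians of -0.04 in LPS/LPS vs LPS, 0.05 in LPS/LPS vs control and 0.08 in LPS vs control over 27 genes. The lowest p values belonged to Ssb, the La protein gene (-0.53, limma adjusted p = 0.503), the subunit gene Polr3k (0.29, adjusted p = 0.987) and the initiation factor gene Brf1 (0.46, adjusted p = 0.675) in that order of comparisons. RNA exosome and nuclear decay genes had medians of -0.10, 0.05 and 0.105 over 16 genes in the same order. Zcchc7, a subunit of the TRAMP complex that hands nuclear RNA to the exosome, came nearest to the threshold of all list genes in LPS/LPS vs LPS (-0.85, SE 0.15, adjusted p = 0.0606), and its level was below the background reference. It also led LPS vs control (0.62, adjusted p = 0.45), and Exosc2 led LPS/LPS vs control (0.26, adjusted p = 0.987).

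Genes that lie beside the RNAs in the genome were mostly dim, with 1 of 12 measured above the background reference. Over 12 measured neighbours of 18 listed the medians were -0.01 in LPS/LPS vs LPS, -0.00228 in LPS/LPS vs control and 0.01 in LPS vs control, and 0 of them reached an unadjusted p under 0.05 in any comparison by limma, beside 8.57% of all probe sets tested in LPS/LPS vs LPS, 4.76% in LPS/LPS vs control and 6.43% in LPS vs control, shares so small that 0 of 12 says little. Frmd8 and Ltbp3, on either side of Malat1 and Neat1, differed by 0.24 (SE 0.16, adjusted p = 0.718) and 0.13 (SE 0.21, adjusted p = 0.90) in LPS/LPS vs LPS. Znfx1, the antisense neighbour of Zfas1, differed by 0.04 (SE 0.15, adjusted p = 0.972) in LPS vs control. Of the list, Ccnb1ip1, beside Rpph1, had the lowest p in LPS/LPS vs LPS (-0.36, adjusted p = 0.613) and in LPS vs control (0.31, adjusted p = 0.808), and Gsta4, near Rn7sk, in LPS/LPS vs control (0.17, adjusted p = 0.987). In the Dlk1-Dio3 domain that holds Rian, 8 measured genes had medians of 0.07, 0.19 and -0.03 in LPS/LPS vs LPS, LPS/LPS vs control and LPS vs control. Begain led the first 2 (0.52, adjusted p = 0.505, and 0.46, adjusted p = 0.987) and Wars the last (0.49, adjusted p = 0.672). None of the 3 small nucleolar RNAs hosted by Zfas1 had a probe set with a single symbol.

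Other noncoding RNAs give the setting. Of 36 other long noncoding RNAs, 18 were negative in LPS/LPS vs LPS with a median of 0.01, 3 lower and 4 higher at an unadjusted p under 0.05 (4.47% and 4.10% of all tested), and 3 exceeded the background reference on average, Snhg17, Snhg4 and Snhg11. Snhg17, the brightest, had 7.74 ± 1.89 (SD, n = 5) in LPS/LPS, 9.03 ± 0.36 (SD, n = 4) in LPS and 8.62 ± 0.34 (SD, n = 4) in control, and Meg3, the imprinted partner of Rian, had 4.78 ± 0.23, 4.59 ± 0.15 and 4.61 ± 0.25 in the same groups. Snhg4 had the lowest p in LPS/LPS vs LPS (0.34, SE 0.12, limma adjusted p = 0.456), Snhg7 in LPS/LPS vs control (0.37, adjusted p = 0.987) and Tug1 in LPS vs control (0.88, adjusted p = 0.567). Snhg11 differed by 0.16, 0.28 and 0.12 in that order of comparisons.

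Of 15 other small structured RNAs, 10 were negative in LPS/LPS vs LPS, with a median of -0.35. At an unadjusted limma p under 0.05, 4 of the 15 were lower, as were 4.47% of all probe sets tested. The Y RNA Rny1, a partner of the Ro60 protein, had 7.62 ± 0.59 (SD, n = 5) in LPS/LPS, 9.59 ± 1.08 (SD, n = 4) in LPS and 7.975 ± 0.81 (SD, n = 4) in control. It had the lowest p of its list in LPS/LPS vs LPS (-1.98, SE 0.48, limma adjusted p = 0.204) and in LPS vs control (1.62, SE 0.50, adjusted p = 0.579). Rny3, the other Y RNA, differed by -1.79 (SE 0.69, adjusted p = 0.488) in LPS/LPS vs LPS. Scarna2, a guide RNA of Cajal bodies, differed by -0.58 (SE 0.16, adjusted p = 0.29) there and led LPS/LPS vs control (-0.47, adjusted p = 0.956), and Rnu11 of the minor spliceosome differed by 0.39 (SE 0.43, adjusted p = 0.837) in LPS/LPS vs LPS.

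Markers of the segment had lower means in LPS/LPS, as did Malat1 and Rn7sk. The mean level of the 22 measured S1 and S2 markers ranged over arrays from 4.57 to 5.24 in LPS/LPS, from 4.75 to 6.25 in LPS and from 5.10 to 6.00 in control. Their median difference was -0.58 in LPS/LPS vs LPS, -0.59 in LPS/LPS vs control and -0.09 in LPS vs control. In LPS/LPS vs LPS 8 of the 22 were lower at an unadjusted limma p under 0.05, as were 4.47% of all probe sets tested. Slc34a1 had 9.22 ± 0.73 (SD, n = 5) in LPS/LPS, 10.04 ± 0.64 (SD, n = 4) in LPS and 11.23 ± 0.23 (SD, n = 4) in control, an order that differs from that of Malat1. Other markers were ordered otherwise, and 10 of the 22 were positive in LPS vs control. Nat8, below the background reference on average, had means of 2.82, 4.10 and 3.45 in the same groups, the order of Malat1. Pck1 had means of 7.465, 8.44 and 7.19, also highest in LPS. The part of these shifts in the levels of Malat1 and Rn7sk was not tested, and in RNA from whole segments fewer cells of a type and less RNA per cell cannot be told apart.

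Markers of other cells were mostly below the background reference: 3 of 18 for the loop, distal tubule and collecting duct, 1 of 7 for podocytes, 1 of 12 for endothelium, 2 of 12 for fibroblasts and mural cells, 1 of 15 for macrophages and monocytes, 0 of 12 for neutrophils and 2 of 12 for lymphocytes lay above it, and 0 of the 1 measured for erythrocytes. The array means of the macrophage list ranged from 3.86 to 4.03 in LPS/LPS, from 3.88 to 3.97 in LPS and from 3.83 to 3.89 in control. Means of the list for the loop and later segments ranged from 4.14 to 4.34 in LPS/LPS, from 4.11 to 5.14 in LPS, where LPS replicate 3 was highest, and from 4.12 to 4.28 in control. The Malat1 difference in LPS/LPS vs LPS was -2.23 without LPS replicate 3. Those of the endothelium list ranged from 3.995 to 4.115 in LPS/LPS, from 3.953 to 4.17 in LPS and from 3.79 to 3.939 in control. Both endotoxin groups thus lay above control without overlap, LPS by a narrow margin. In each comparison with control 11 of the 12 endothelium markers were positive, and both comparisons use the same control arrays. At an unadjusted limma p under 0.05, 2 of the 12 were higher in each. Of all probe sets tested, 3.48% were higher at that p in LPS vs control. Those of the neutrophil list ranged from 3.44 to 3.79 in LPS/LPS, from 3.245 to 3.84 in LPS and from 3.41 to 3.81 in control. Lists this near background say little about how many such cells were present, and their part in the levels of the noncoding RNAs was not tested. Lcn2, an injury and endotoxin response gene, had 4.57 ± 0.39 (SD, n = 5) in LPS/LPS, 5.62 ± 0.71 (SD, n = 4) in LPS and 3.81 ± 0.20 (SD, n = 4) in control, so both endotoxin groups were above control there, without overlap. Its mean over all arrays, 4.66, was below the background reference, and limma called it in neither comparison with control (adjusted p = 0.071 for LPS and 0.987 for LPS/LPS).

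**Figure D5:**
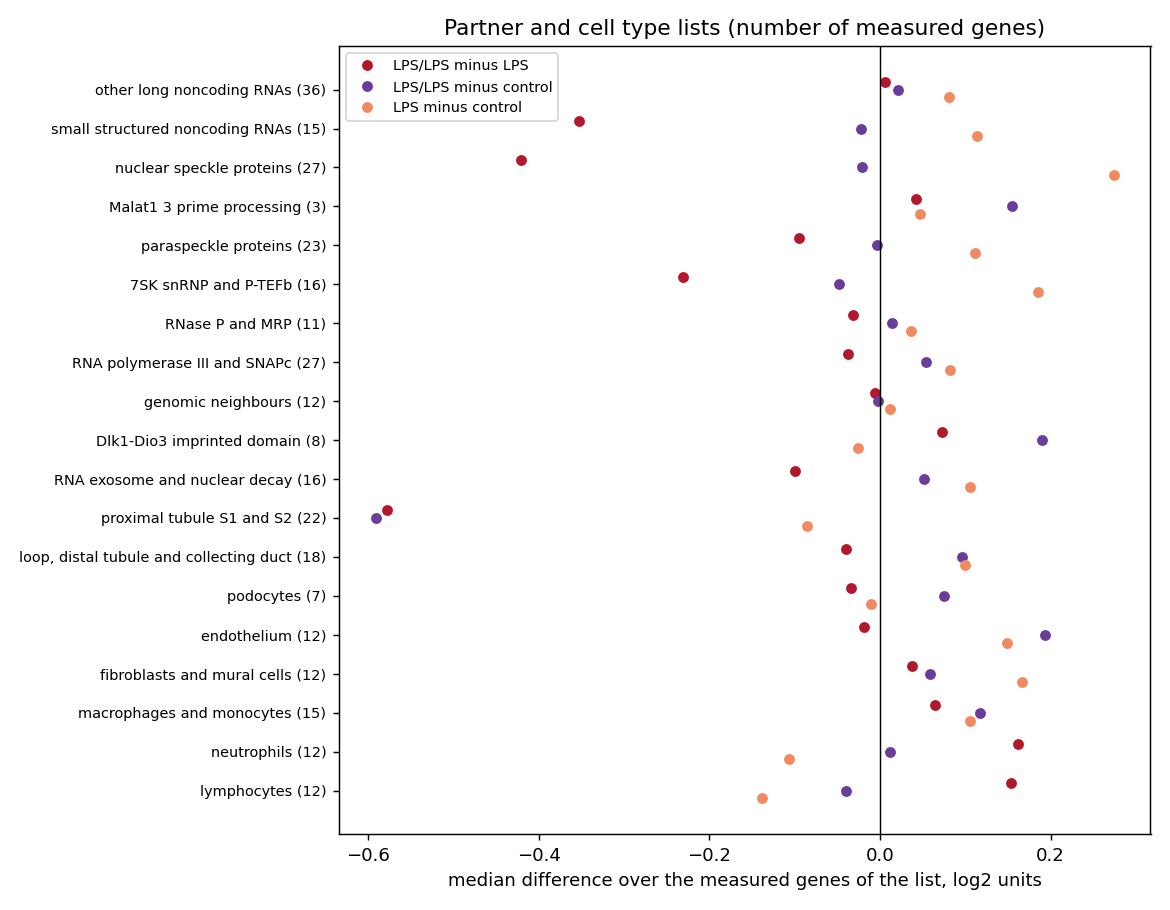
Median difference in log2 units over the measured genes of each partner and cell type list (number of genes in brackets), as LPS/LPS minus LPS, LPS/LPS minus control and LPS minus control. The speckle protein list lies at -0.42 and the S1 and S2 list at -0.58 for LPS/LPS minus LPS, while the genomic neighbours lie at 0.01 or nearer to 0 in all 3.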

How the data were processed

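RNA was purified with the PicoPure kit and made into biotin-labelled target by the Affymetrix WT Pico method, per the labels' protocols. For each of 13 arrays the authors deposited 1 log2 value per probe set, between 0.376 and 13.8. The submitters' processing notes name RMA, which merges the probes of a set into that value, and Partek 6.6. How background was removed, how arrays were normalized to each other and which genome build was used is not given in the sources used here. Residual background in such values would shrink changes of dim probe sets. Scanner files were not used here, and the number of arrays limits precision.

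Names came from the platform annotation: 23521 probe sets had 1 symbol and were tested, while 1814 with several and 16010 with none were left out. All 13 arrays entered 1 limma fit without covariates (lmFit and eBayes, limma 3.58.1, R 4.3.3), and the comparisons LPS/LPS vs LPS, LPS/LPS vs control and LPS vs control were taken from it, two-sided, with Benjamini-Hochberg adjustment over all 23521 and a threshold of 0.05. SE is limma's moderated standard error. Lists take the brightest probe set of each gene. The fit was tested on simulated data.

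The genes described, the lists and the rule for named genes were chosen with earlier results of these data known. The rule names every probe set of the 6 genes. From each list it takes called genes (up to 4 per comparison) or else the gene with the lowest p, and from the noncoding lists also the 4 brightest. For each of the 6 it takes the 5 genes with the highest Pearson r. Slc34a1, Lcn2 and Umod are references. The background reference and the split into wide and narrow arrays were chosen after seeing the data. Alternatives varied the probe sets tested, a minimum level of 4, the normalization, array weights, the prior, the arrays in the fit, the replicate number as a block and the array spread as a covariate.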

Additional observations from a re-analysis of the deposited data

Results flagged for a closer look

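Over 60 groups of 4 or 5 arrays, 2 held an array set apart from its group by a gap that was large beside the range of the group, and chance alone marks about 1 in 20. None of the 9 probe sets of the 6 noncoding RNAs was among them. Snhg4, a small nucleolar RNA host, stood at 5.55 on LPS/LPS replicate 4, with the other LPS/LPS arrays between 5.07 and 5.16. Umod, the uromodulin gene of the thick ascending limb, stood at 8.36 on LPS replicate 3, with the other LPS arrays between 4.36 and 5.015. Without LPS replicate 3, Malat1 differed by -2.23 in LPS/LPS vs LPS. The cause of neither value was tested.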

How the results depend on the processing

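Of 444 differences of the 6 RNAs recomputed under 27 settings, 437 stayed within 1 SD of the reported value. Many of the 444 could not move, since the prior, moderation, minimum level and arrays of the group not compared do not enter such a difference. The 7 that moved further came from splits into few arrays: within the wide arrays Rpph1 was 0.45 in LPS/LPS vs LPS and 0.466 in LPS/LPS vs control. Within the narrow arrays, with 1 LPS array, Neat1 was -0.45 and Zfas1 -0.068 in LPS/LPS vs LPS, Rpph1 was -0.46 in LPS/LPS vs control, and Zfas1 was 0.14 and Rn7sk -0.12 in LPS vs control. Signs also changed for Rpph1 in each comparison under 1 or more settings, for Rn7sk in LPS vs control as given, and for Rian in LPS/LPS vs LPS within the wide arrays (0.0037). Malat1 kept its sign in all 23 refits of each comparison, a count that includes refits unable to change its difference. In LPS/LPS vs LPS it ranged from -2.48 to -1.91 and was called in 19, and not with a trend and robust prior, in a fit of only those groups, with the replicate block (-2.34) or without moderation. In LPS/LPS vs control it ranged from -1.70 to -1.31 and was called in 3, with quantile normalization, with the array spread as a covariate, and with the wide and narrow classes as a block. Since Malat1 was chosen on these arrays, its calls describe the choice and are not a test of it.

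The number of probe sets called in LPS/LPS vs LPS, LPS/LPS vs control and LPS vs control was 21, 1 and 0. It was 7, 0 and 0 over all probe sets, 14, 2 and 0 with 1 probe set per gene, 30, 3 and 6 with a mean level of at least 4, 23, 5 and 7 after quantile normalization, and 49, 4 and 26 with array weights. It was 21, 2 and 0 with a trend and robust prior, 8, 0 and 0 with only the groups compared, 22, 12 and 0 with the spread as a covariate, 0, 0 and 0 without moderation, and 25, 5 and 0 with the classes as a block. With the replicate block it was 5, 0 and 0. Of 12 same-numbered pairs, 3 had a correlation above 0.1 (range -0.359 to 0.22), which cannot settle whether the numbers mark a shared batch. Leaving out 1 array gave 7 to 104 calls in LPS/LPS vs LPS, 0 to 3 in LPS/LPS vs control and 0 to 24 in LPS vs control. Without LPS replicate 1 there were 104 and 24 calls in LPS/LPS vs LPS and LPS vs control. LPS/LPS vs LPS had 7 calls without LPS/LPS replicate 2 or 3, 9 without LPS/LPS replicate 4 and 13 without LPS replicate 3. The call in LPS/LPS vs control was lost without control replicate 1 or 4 or LPS/LPS replicate 3. The causes of these changes were not tested.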
